A study of Mus musculus with 2 samples.

Results

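The secreted Wnt antagonists measured here were 9 genes, taken by name from the deposited table of 17408 genes: Sostdc1, Dkk1, Dkk2, Dkk3, Sfrp1, Sfrp2, Sfrp4, Wif1 and Frzb. All 9 were present in the table, and the list was chosen with earlier results of these data known. The unsorted mouse cells had undergone reprogramming towards induced pluripotency until day 16, and single cells were sequenced in droplets from the 3′ end of polyadenylated RNA, with a unique molecular identifier (UMI) on each RNA molecule. They came from mouse embryonic fibroblasts (MEFs) that carried STEMCCA, a doxycycline-inducible cassette of Pou5f1, Sox2, Klf4 and Myc, and were kept in mouse embryonic stem cell medium with serum, LIF, ascorbic acid and doxycycline. The 2 libraries form 1 group with the same treatment and time and no untreated cells, and they are called replicate 1 and replicate 2. The labels do not say which MEF line, strain or culture each library came from. The p-values measure only how far these 2 libraries disagree on a difference between cells, with the spread shared among genes. The study drew such cells from 2 separate STEMCCA mouse systems, and a difference of mouse system, if the libraries hold one each, cannot be told apart from the library.

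Wnt proteins are secreted ligands that bind Frizzled receptors with LRP5 or LRP6 as co-receptors, which stabilises beta-catenin and lets it act with TCF and LEF factors in the nucleus. Antagonists work outside the cell at different steps. The Sfrp proteins and Frzb carry a Frizzled-like domain and bind Wnt ligands directly, as does Wif1 with another kind of domain. Dkk1 and Dkk2 bind LRP5 and LRP6 together with Kremen proteins, whereas Dkk3 belongs to the same family by sequence but is not regarded as a typical LRP ligand. Sostdc1 is a relative of sclerostin and binds LRP co-receptors and some bone morphogenetic proteins. Wnt activity is known to favour the pluripotent state in mouse cells, and fibroblasts are a known source of several of these antagonists.

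Replicate 1 held 3109 cells with a median of 15625 UMIs, and replicate 2 held 3914 cells with a median of 14292 UMIs. The libraries shared 12 barcodes. Cells were grouped into 16 clusters without use of the antagonists or of 64 other Wnt pathway genes in the table, and 12 clusters with at least 30 cells in both libraries are called states here. A state was named after a cell type only where the markers of that type led it, and otherwise after its leading genes by fold. The pluripotent-like state (146 and 392 cells) had 12 of 12 pluripotency markers raised 2-fold or more over the remaining cells. The fibroblast-like state (196 and 109 cells) had 8 of 11 fibroblast markers raised and was led by Spp1 and Mmp3, with 1 fibroblast marker and 1 marker of another class among its 10 leading genes. The myofibroblast-like state (307 and 221 cells) had 7 of 7 contractile markers raised, with 1 of them and 1 marker of another class among its 10 leading genes. Fibroblast markers were not particular to the fibroblast-like state, since 10 of the 11 were raised in the myofibroblast-like state and 7 in the cycling state led by Mki67 and Diaph3. The marker Dcn was not among the 8 raised in the fibroblast-like state. It had 0.296 and 0.272 UMIs per 10000 there, against 2.28 and 1.58 in the state led by Mmp11 and Isg15. Levels are mean UMIs per 10000 UMIs of the cell, and shares of cells with a UMI were taken after each cell was thinned to 4000 UMIs, below the shallowest cell.

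The UMI totals separated 6 detected antagonists from 3 near-absent ones. Sfrp1 had 26355 UMIs in replicate 1 and 22137 in replicate 2. Dkk2 had 2719 and 1767, Sostdc1 1726 and 643, Dkk3 1398 and 1599, Sfrp2 411 and 838, and Sfrp4 229 and 838. These 6 genes had a mean of at least 0.05 per 10000 over all cells and entered the tests. Frzb had 17 and 11 UMIs, Wif1 had 5 and 7, and Dkk1 had 0 and 6, and these 3 genes did not pass the minimum. The 0 of Dkk1 among 54145377 UMIs allows a level of up to 5.5e-04 per 10000 (3 counts). Such limits cover counting error only. UMIs counted at 1 end of the RNA do not scale with its length, but capture can differ between genes, so comparisons of level are made within a gene.

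The first question was in which states the antagonists were expressed. In the limma F-test on log2(level + 0.1), with the library as a term, all 6 tested antagonists differed among the 12 states. This count is read against a background of 92.3% of 9239 genes past the same threshold (adjusted p below 0.05, Benjamini-Hochberg over all genes), so passing it does not set the antagonists apart. The order of the states and the distance between them were gene-specific, as described next for each family.

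**Figure D1:**
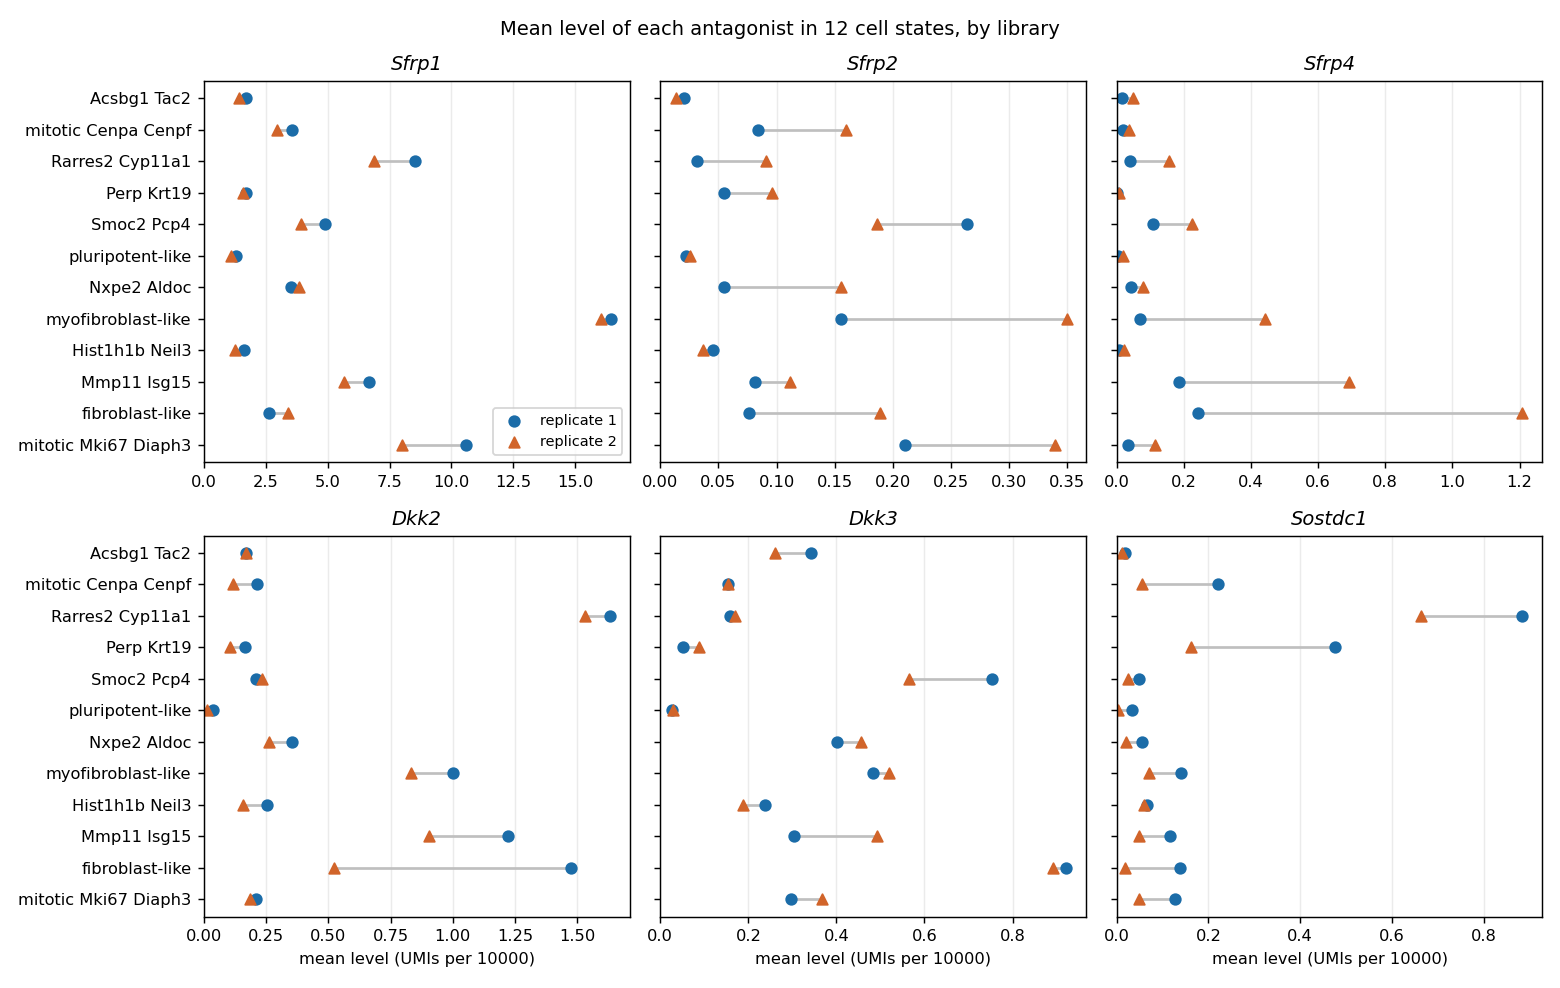
Mean level of the 6 tested antagonists (UMIs per 10000, linear axes of different range) in the 12 states. Circles are replicate 1 and triangles replicate 2, joined by a grey line. Sfrp1 is highest in the myofibroblast-like state in both libraries, at 16.4 and 16.03, and Dkk2 and Sostdc1 are highest in the state led by Rarres2 and Cyp11a1.

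Of the Frizzled-related proteins, Sfrp1 (chromosome 8, 23411502 to 23449632, GRCm38) was found in every state. Its level was 16.4 per 10000 in replicate 1 and 16.03 in replicate 2 in the myofibroblast-like state, which was above both values of every other state. The cycling state led by Mki67 and Diaph3 followed with 10.6 and 7.996, and the state led by Rarres2 and Cyp11a1 had 8.54 and 6.89. These neighbours overlapped each other. The fibroblast-like state had 2.65 and 3.41, below 7 of the 12 states by the mean of both libraries. Pluripotent-like cells were lowest, with 1.31 and 1.10, and overlapped with the next state, led by Hist1h1b and Neil3, which had 1.60 and 1.27. Myofibroblast-like cells thus had 12.6 and 14.5 times the level of pluripotent-like cells. They held 28.2% and 20.4% of all Sfrp1 UMIs while being 9.87% and 5.65% of the cells. The limma F was 133 (adjusted p = 6.1e-14), at percentile 97.4 of all genes tested.

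Sfrp2 (chromosome 3, 83766321 to 83774316) was low and its order of states was loose. Its highest mean was in the Mki67 and Diaph3 state, with 0.211 per 10000 in replicate 1 and 0.339 in replicate 2. Myofibroblast-like cells had 0.156 and 0.350, and cells of the state led by Smoc2 and Pcp4 had 0.264 and 0.187. The leading state differed between the libraries, and 9 of 11 neighbouring pairs in the order overlapped. The lowest levels, 0.0203 and 0.0137, were in the state led by Acsbg1 and Tac2. The gene Gm26771 overlaps Sfrp2 on the opposite strand and is in the table. No source used here states if reads were assigned by strand, and those of Gm26771 could be among the Sfrp2 counts. Outside the 12 states, the 41 mesothelial-like cells of replicate 2 had a level of 1.43, with 65 Sfrp2 UMIs, but replicate 1 had 1 such cell. The limma F across the states was 13.2 (adjusted p = 2.6e-06), near the middle of all genes tested at percentile 55.3.

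Sfrp4 (chromosome 13, 19623104 to 19632994) was led by the fibroblast-like state in both libraries, but with 0.241 per 10000 in replicate 1 and 1.21 in replicate 2. The Mmp11 and Isg15 state was second in both, with 0.186 and 0.692. The third in replicate 2 was the myofibroblast-like state at 0.442, against 0.0704 in replicate 1. The spread between the libraries was so wide that all 11 neighbouring pairs overlapped (limma F 12.1, adjusted p = 4.8e-06). At the low end, cells of the Perp and Krt19 state had 0 UMIs in replicate 1 and 6 in replicate 2. Frzb (chromosome 2, 80411970 to 80447625) had too few UMIs for a test, but where they lay was narrow. Fibroblast-like cells held 6 and 6 of its UMIs, myofibroblast-like cells 6 and 3, the Mmp11 and Isg15 state 1 and 2, and the Mki67 and Diaph3 state 4 in replicate 1. These 4 states accounted for all UMIs of Frzb.

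Of the Dickkopf family, Dkk2 (chromosome 3, 132085292 to 132180304) had another leading state than Sfrp1, although several of their high states were the same. Its level was highest in the Rarres2 and Cyp11a1 state, with 1.63 per 10000 in replicate 1 and 1.53 in replicate 2. The Mmp11 and Isg15 state had 1.22 and 0.903, and the myofibroblast-like state 1.002 and 0.831. In fibroblast-like cells the libraries were far apart, at 1.47 and 0.523. The other states but for the pluripotent-like one lay between 0.103 and 0.355. Pluripotent-like cells had 0.0367 and 0.0138, on 14 and 16 UMIs. After thinning, Dkk2 was detected in 38.6% and 37.2% of the cells of the leading state and in 1.37% and 0.510% of pluripotent-like cells. The limma F was 57.05 (adjusted p = 4.0e-11).

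Dkk3 (chromosome 7, 112116017 to 112159057) followed yet another order and was the most even between the libraries. The fibroblast-like state had 0.922 per 10000 in replicate 1 and 0.891 in replicate 2, above both values of every other state. The Smoc2 and Pcp4 state followed with 0.753 and 0.564, and the myofibroblast-like state with 0.484 and 0.520. Only 3 of 11 neighbouring pairs in its order overlapped. The Rarres2 and Cyp11a1 state, where Dkk2 was highest, had 0.159 and 0.171 and was ninth. Pluripotent-like cells were lowest with 0.0272 and 0.0298, and the Perp and Krt19 state was next with 0.0518 and 0.0888. The limma F was 57.6 (adjusted p = 3.7e-11). Dkk1 (chromosome 19, 30545863 to 30549665) had its 6 UMIs in replicate 2 spread over 5 cells, of which none was pluripotent-like.

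Sequence upstream of the start was at hand for 5 of the 9 antagonists (Dkk1, Dkk2, Sfrp2, Wif1 and Frzb) in the RefSeq promoters of GRCm38.p6, as 250 bases before the annotated start. The windows of Dkk2 and Sfrp2 are shown, because these are the detected antagonists of the 5 and their starts coincide with those of the GENCODE annotation. The Dkk2 window is chr3:132085042-132085291 and the Sfrp2 window chr3:83766071-83766320, both on the plus strand, and capitals would mark a motif.
Dkk2: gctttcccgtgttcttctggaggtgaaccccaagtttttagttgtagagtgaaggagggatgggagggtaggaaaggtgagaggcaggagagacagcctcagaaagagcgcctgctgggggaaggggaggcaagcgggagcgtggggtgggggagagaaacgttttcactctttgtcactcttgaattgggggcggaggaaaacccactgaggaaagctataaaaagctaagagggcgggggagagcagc
Sfrp2: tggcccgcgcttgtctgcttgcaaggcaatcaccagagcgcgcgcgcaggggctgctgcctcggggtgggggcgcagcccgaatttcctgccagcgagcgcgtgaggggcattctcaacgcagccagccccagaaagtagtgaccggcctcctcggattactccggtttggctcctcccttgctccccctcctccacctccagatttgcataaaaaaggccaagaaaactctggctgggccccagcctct
Both strands were searched for 3 motifs, none of which contains another. For TCF/LEF the letters were CTTTG followed by a pair of bases that are each A or T. For AP-1 they were TGA, then C or G, then TCA, and for TEAD the letters were GGAATG. Neither window held any of them, so no base is in capitals. Of the other 3 windows, only that of Dkk1 held a match, with TCF/LEF letters in 2 places (CTTTGAA and CTTTGTT), both before the RefSeq start but inside the gene as GENCODE places it. TCF/LEF letters were present in 14.8% of 32851 promoter windows, AP-1 letters in 4.46% and TEAD letters in 12.6%. A match is a description of the letters and not a binding site.

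Sostdc1 (chromosome 12, 36314139 to 36318452) shared its leading state with Dkk2. The Rarres2 and Cyp11a1 state had 0.884 per 10000 in replicate 1 and 0.664 in replicate 2, above both values of every other state. By mean level the Perp and Krt19 state was second with 0.476 and 0.161. For Dkk2 that state was the lowest but for the pluripotent-like one, at 0.163 and 0.103. The Rarres2 and Cyp11a1 state and the Perp and Krt19 state together held 75.4% and 73.1% of the Sostdc1 UMIs. After thinning, Sostdc1 was detected in 14.0% and 8.51% of the cells of the leading state. The shares were 4.47% and 2.19% in the Perp and Krt19 state and 1.41% and 2.75% in the Hist1h1b and Neil3 state. The third state, the mitotic one led by Cenpa and Cenpf, had 0.220 and 0.0554. Levels in the lowest state, led by Acsbg1 and Tac2, were 0.0186 and 0.0106, on 8 and 8 UMIs. The limma F was 30.5 (adjusted p = 5.1e-09). Wif1 (chromosome 10, 121033960 to 121100650) had its 12 UMIs in 12 cells, of which 5 were in the Acsbg1 and Tac2 state and 3 in the Hist1h1b and Neil3 state.

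Few cells carried most of the Sostdc1 RNA. The 1% of cells with most of its UMIs held 59.2% of them in replicate 1 and 80.9% in replicate 2, and 21 and 9 cells held at least 50% of all. A single cell of the Perp and Krt19 state in replicate 1 had 176 of the 515 UMIs of that state and library. Sfrp4 was next, with 53.3% and 50.2% in the top 1%, followed by Sfrp2 with 38.7% and 35.7%. Both had fewer UMIs than Sostdc1 in replicate 1, where 29 cells held at least 50% of the Sfrp4 UMIs and 49 cells those of Sfrp2. Dkk2 was at 19.4% and 22.7%, Dkk3 at 13.7% and 12.8%, and Sfrp1 at 9.83% and 9.95%. A gene with few UMIs lies in few cells by counting alone, which limits the comparison of the curves of different genes.

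**Figure D2:**
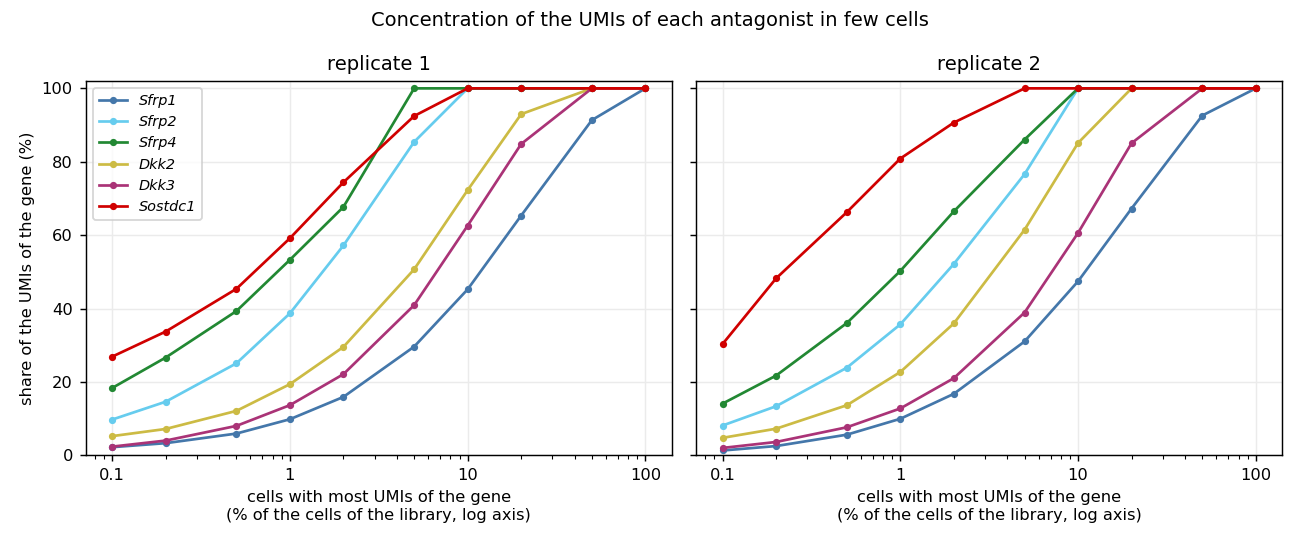
Share of the UMIs of each tested antagonist (vertical axis, %) held by the cells with most of them (horizontal axis, % of the cells of the library, log axis), with 1 panel per library. At 1% of the cells the Sostdc1 line reaches 59.2% and 80.9%, above the other lines, and the Sfrp1 line 9.83% and 9.95%.

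Cells with at least 5 Sostdc1 UMIs numbered 85 in replicate 1 and 32 in replicate 2, and held 81.7% and 76.2% of its UMIs. This class and the genes named in this paragraph were chosen after the values were seen, so they are a description with no test. Their other genes were set against cells of the same state and library with fewer Sostdc1 UMIs. The class was cut without thinning, which favours deep cells. Its median depth was 18992 and 18494.5 UMIs, against 15625 and 14292 over all cells, and depth was not matched. The chemokine Ccl7 had 2.59 against 1.02 per 10000 in replicate 1 and 2.77 against 1.22 in replicate 2. The interleukin-1 receptor antagonist Il1rn had 3.86 against 2.01 and 3.27 against 1.46, and the matrix protease Adamts5 1.40 against 0.518 and 0.952 against 0.505. In the other direction, Fxyd6, a regulator of the sodium pump, had 1.60 against 4.36 and 1.48 against 3.85. Among the antagonists, Dkk3 was at 0.118 against 0.195 and 0.0903 against 0.196, whereas Sfrp1 was at 9.54 against 6.70 in replicate 1 and at 4.82 against 5.28 in replicate 2. Dkk2, despite the shared leading state, was at 1.03 against 1.09 and 0.533 against 0.892.

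The next question was how pluripotent-like cells compared with all other cells. All 6 tested antagonists were lower there in limma (4 profiles, with the library as a term), each in 2 of 2 libraries. The background for this direction is 45.0% of 9239 genes, and the median log2 fold was -1.48 for the 6 antagonists and -0.15 for all genes tested. In 5 of the 6, all but Sfrp1, the level in pluripotent-like cells was below 0.05 in both libraries, so they passed the minimum only through the other cells, which favours a lower value. The count and the median are therefore a description of the 6 tested antagonists. On the scale of log2(level + 0.1), the fold was strongest for Dkk2 (log2 fold -2.32, SE 0.11, adjusted p = 2.3e-06 in limma). Its levels were 0.0367 in pluripotent-like and 0.686 in other cells of replicate 1, and 0.0138 and 0.393 in replicate 2. Sfrp1 had 1.31 against 5.67 and 1.10 against 4.10 (log2 fold -1.92, SE 0.10, limma adjusted p = 2.4e-06). Dkk3 had 0.0272 against 0.319 and 0.0298 against 0.324 (log2 fold -1.71, SE 0.08, limma adjusted p = 2.4e-06). This order depends on the added 0.1. Plain ratios of other to pluripotent-like cells were 18.7 and 28.4 for Dkk2, 11.7 and 10.9 for Dkk3 and 4.34 and 3.71 for Sfrp1. They were 8.63 and 32.7 for Sostdc1, 10.7 and 9.67 for Sfrp4 and 3.75 and 5.52 for Sfrp2.

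The 3 lower-level antagonists had smaller folds on the scale of log2(level + 0.1), which understates the change of low genes. Sostdc1 had 0.0335 against 0.289 in replicate 1 and 0.00297 against 0.0972 in replicate 2 (log2 fold -1.24, SE 0.14, limma adjusted p = 1.3e-04). Sfrp2 had 0.0218 against 0.0818 and 0.0257 against 0.142 (log2 fold -0.76, SE 0.11, limma adjusted p = 4.4e-04). Sfrp4 had 0.00519 against 0.0554 and 0.0195 against 0.188 (log2 fold -0.92, SE 0.16, limma adjusted p = 0.0011). The pluripotent-like values of Sostdc1 rest on 14 and 3 UMIs and those of Sfrp4 on 2 and 18. The call of Sfrp4 was lost with a pseudocount of 1 (log2 fold -0.15, limma adjusted p = 0.064) and without the minimum level (log2 fold -0.92, limma adjusted p = 0.068). Its p was at most 0.016 in the other fits.

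Free RNA in the droplets can give UMIs in cells that do not express a gene, so the antagonists were set beside 6 fibroblast genes that pluripotent cells should lack or hold at low levels. The levels of Col1a1, Col1a2, Col3a1, Postn, Dcn and Lum in pluripotent-like cells were between 0% and 8.49% of those in other cells in replicate 1 and between 4.26% and 9.62% in replicate 2. Dkk2 was at 5.35% and 3.52%, Dkk3 at 8.55% and 9.20%, Sfrp4 at 9.38% and 10.3%, and Sostdc1 at 11.6% and 3.06%. Sfrp4 was thus slightly above the range of the fibroblast genes in both libraries, and Sostdc1 and Dkk3 were above it in replicate 1. The pluripotent-like values of these 4 genes rest on at most 34 UMIs in a library, those of Sfrp4 on 2 and 18. Such counts are too few to tell these genes apart from background at this depth.

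Sfrp1 lay above the range in both libraries, at 23.04% and 26.9%, on 539 and 1127 UMIs. Sfrp2 was also above it, at 26.7% and 18.1%, but on 10 and 29 UMIs. After thinning, 42.5% and 30.9% of pluripotent-like cells had a Sfrp1 UMI (median depth before thinning 28768 and 26078.5 UMIs). Macrophage-like cells, a type that should lack Sfrp1, had 1 Sfrp1 UMI among 122646. Their mean level was 0.0942 per 10000, against 1.31 and 1.10 in pluripotent-like cells of replicates 1 and 2. They were 13 cells over both libraries with a median depth of 8833 UMIs, so this level is a description and no test was made. Pluripotent-like cells were also split by UMIs of the 6 fibroblast genes after thinning, a split chosen after seeing the data. The 73 and 108 cells with such a UMI had a Sfrp1 level of 1.29 and 1.41 per 10000, or 22.7% and 34.4% of that in other cells. The 73 and 284 cells without one had 1.32 and 0.989, or 23.3% and 24.1%. At full depth 142 of 146 and 321 of 392 pluripotent-like cells carried a UMI of the fibroblast genes, and the other 4 and 71 cells had a Sfrp1 level of 1.27 and 0.896, or 22.3% and 21.9%. The part of free RNA in the Sfrp1 UMIs of pluripotent-like cells was not tested.

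**Figure D3:**
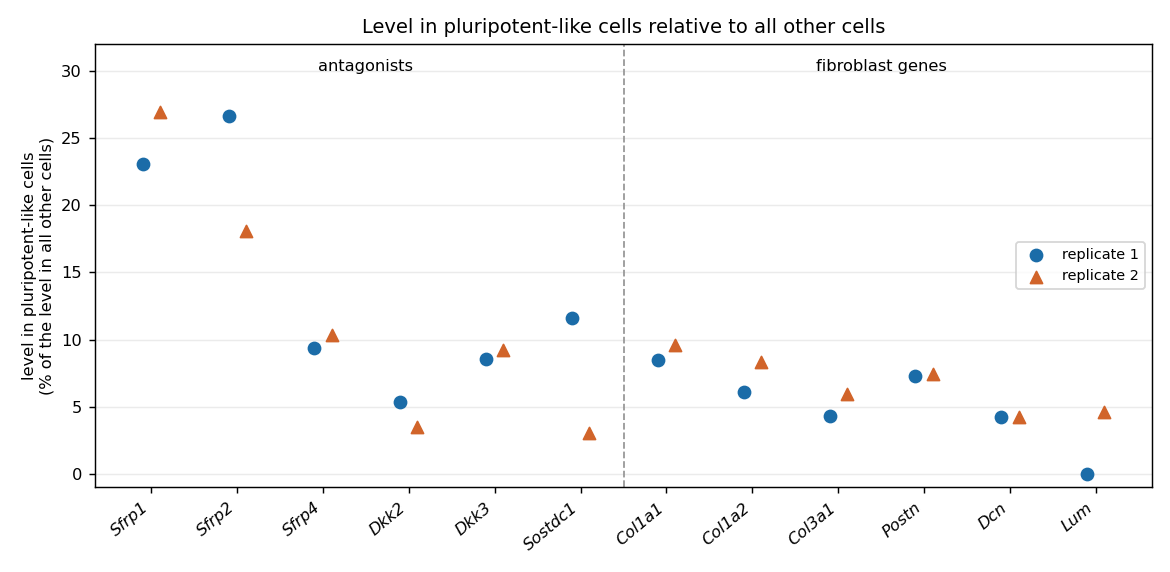
Level in pluripotent-like cells as a percentage of the level in all other cells (vertical axis, %) for the 6 tested antagonists and 6 fibroblast genes, with circles for replicate 1 and triangles for replicate 2. Sfrp1 lies at 23.04% and 26.9%, above the 9.62% that no fibroblast gene exceeds, with Dkk2 at 5.35% and 3.52%, and Dkk3 at 8.55% and 9.20%.

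A further question was whether single cells carried more than 1 antagonist. At 4000 UMIs per cell, 2 or more of the 9 antagonists were detected in 21.6% of replicate 1 cells and 16.4% of replicate 2 cells, and no cell had more than 4. Of the 12 states, the Rarres2 and Cyp11a1 state had the largest share of such cells in both libraries, with 45.8% and 42.6%. Myofibroblast-like cells followed with 34.9% and 42.1%, and the Mmp11 and Isg15 state had 31.3% and 30.5%. Pluripotent-like cells had 3.42% and 1.28%, and 56.8% and 67.1% of them had none.

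For each of the 15 pairs of tested antagonists, the odds ratio of detection in the same cell was combined over states (Mantel-Haenszel), so that a shared state does not raise it. It was above 1 in both libraries for 6 pairs and below 1 in both for 5. Sfrp1 and Sfrp2 had 1.52 and 2.72, with 62 cells against 55.4 expected from the state totals in replicate 1 and 110 against 85.5 in replicate 2. Dkk3 and Sfrp2 had 1.58 and 1.51, on 17 cells against 12.3 and 23 against 16.8. The pair farthest below 1 was Dkk2 and Sfrp4, which share high levels in the Mmp11 and Isg15 state. Its odds ratio was 0.172 in replicate 1 and 0.433 in replicate 2, with 2 cells where 8.57 were expected and 10 where 19.8 were expected. Dkk2 and Sfrp2 also lay below 1, at 0.895 and 0.496. Dkk2 and Sostdc1, which share their leading state, gave opposite values in the libraries, 1.41 and 0.669, but 1.47 and 1.072 without thinning and 2.91 and 1.62 when states were ignored. In 3 pairs fewer than 5 cells were expected in a library. These ratios carry no test, because cells are not replicates and there are 2 libraries.

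**Figure D4:**
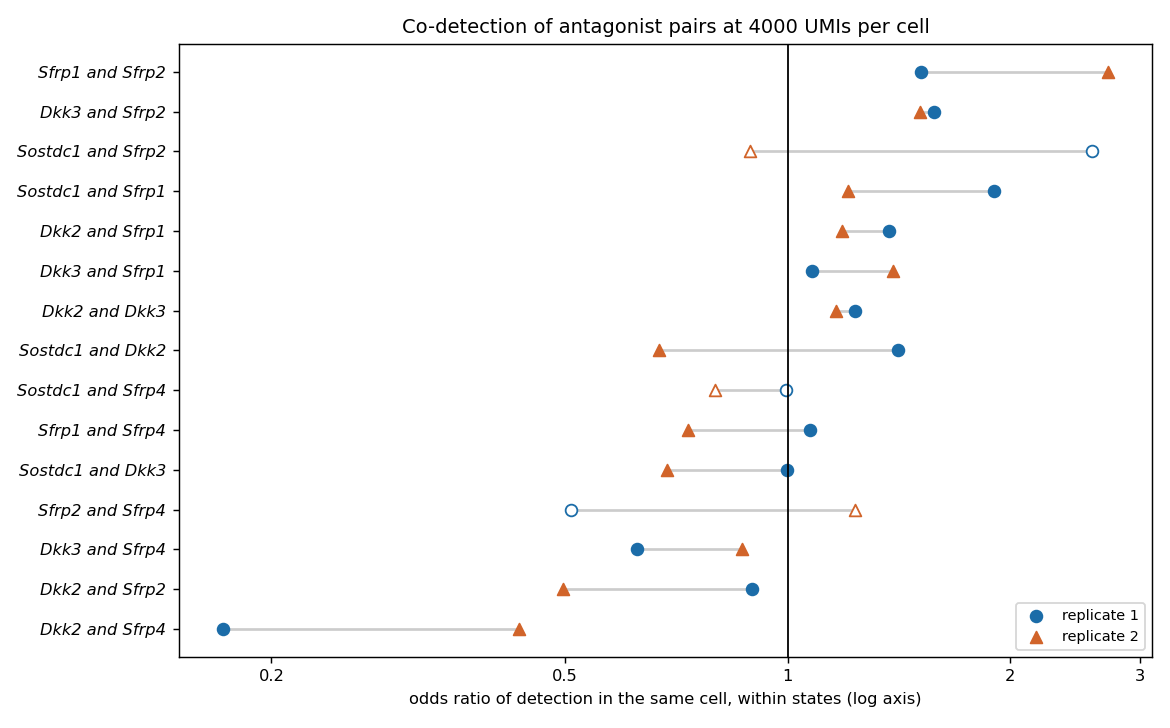
Odds ratio of detection of both antagonists in a cell, combined within states, for 15 pairs (horizontal axis, log scale; a black line marks 1). Circles are replicate 1, triangles replicate 2, and open symbols mark pairs with fewer than 5 expected cells in a library. Dkk2 and Sfrp4 lie lowest, at 0.172 and 0.433, and Sfrp1 and Sfrp2 are at 1.52 and 2.72.

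Without thinning, 10 pairs were above 1 in both libraries, and Dkk2 with Sfrp4 remained below 1 at 0.625 and 0.509. Dkk3 and Sfrp4 turned from 0.626 and 0.867 to 1.109 and 1.014. Leaving out 235 cells with more than 2 times the median UMIs of their state and library, as a guard against doublets, left 6 pairs above 1 in both.

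The libraries belong to the same group, and their difference is given as a description with no test. Over all cells Sostdc1 was 0.277 per 10000 in replicate 1 and 0.0877 in replicate 2, or 3.16 times as high in replicate 1, and it was higher there in 12 of 12 states. Sfrp4 went the other way, with 0.0530 and 0.172, or 3.23 times as high in replicate 2, and was higher there in 12 of 12 states. Having all 12 states in 1 direction was found for 4.33% of 9239 genes. Dkk2 had 0.656 and 0.355 and Sfrp1 5.47 and 3.80, each higher in replicate 1 in 10 of 12 states. Dkk3 was close to equal, with 0.305 and 0.294. Sfrp2 had 0.0790 and 0.130 and was higher in replicate 2 in 9 of 12 states.

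The make-up of the libraries moved with the ratios of Sostdc1, Dkk2 and Sfrp1. The Rarres2 and Cyp11a1 state, which led Sostdc1 and Dkk2, was 17.4% of the cells of replicate 1 and 7.20% of replicate 2, and the myofibroblast-like state, which led Sfrp1, was 9.87% and 5.65%. For Sfrp4 it went the other way, since its leading fibroblast-like state was 6.30% of replicate 1 and 2.78% of replicate 2. On the scale of log2(level + 0.1), the ratio of replicate 2 to replicate 1 was -1.006 for Sostdc1 over all cells and -0.56 with equal weight to each state. For Dkk2 these values were -0.73 and -0.39, and for Sfrp1 -0.51 and -0.17. For Sfrp4 the ratio went from 0.83 to 1.11, and its largest state ratio was 1.94 in fibroblast-like cells. Sostdc1 alone was at least 2-fold apart over all cells on this scale, against a background of 0.206% of 9239 genes, and Sfrp4 alone with equal weight to each state.

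**Figure D5:**
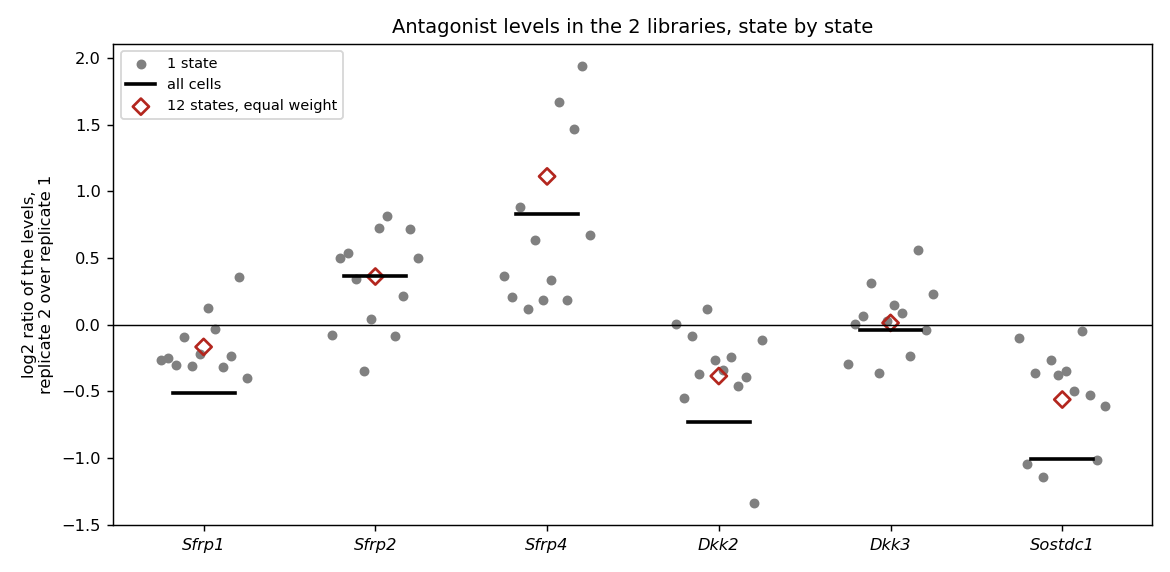
Log2 ratio of the level in replicate 2 over replicate 1, on the scale of log2(level + 0.1), for the 6 tested antagonists. Grey points are the 12 states, black lines all cells and red diamonds the states at equal weight. All 12 points of Sfrp4 lie above 0 and all 12 points of Sostdc1 below it.

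The genes whose levels over the 12 states were most like those of an antagonist were named by the lower of the Pearson r of the libraries. Profiles over states share depth and cell cycle, and r over 12 states is a description. For Sfrp1 they were C1qtnf7 (r 0.95 and 0.96), Rbms3 (0.95 and 0.97) and Wbscr17 (0.95 and 0.94). For Dkk3 they were Mfap2, a component of microfibrils (0.93 and 0.97), Eid1 (0.92 and 0.95) and Desi2 (0.90 and 0.93). For Dkk2 they were Cnrip1 (0.91 and 0.92), Itih5 (0.90 and 0.90) and Cdkn1c, an inhibitor of cyclin-dependent kinases (0.87 and 0.91). For Sfrp4 they were Zfp354c (0.96 and 0.95), Npc2 (0.94 and 0.92) and Uba7 (0.91 and 0.94), and for Sfrp2 Dennd5a (0.88 and 0.90), Nek7 (0.90 and 0.88) and Sipa1 (0.87 and 0.89). Sostdc1 had the least close ones, with Edn1, which encodes endothelin (0.84 and 0.80), the mesothelial gene Msln (0.85 and 0.75) and Wdr6 (0.73 and 0.85). Between antagonists, Dkk3 and Sfrp4 were most alike (0.74 and 0.81), and the r of Dkk3 and Sostdc1 was negative (-0.33 and -0.26). Dkk2 and Sfrp1 had 0.58 and 0.74.

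The other genes of the pathway give the setting of the antagonists. Of 64 such genes in the table, 28 had a mean of at least 0.05, and in pluripotent-like cells 5 were higher, 19 lower and 4 did not pass, with a median log2 fold of -0.51 against -0.15 for all genes tested. Of all genes tested, 29.6% were higher and 45.0% lower. Of the 19 lower genes, 8 had levels below 0.05 in pluripotent-like cells of both libraries and passed the minimum only through the other cells. Only 2 of 12 ligand genes reached that mean, and both were lower: Wnt16 (log2 fold -0.96) and Wnt5a (-0.71), a ligand known mainly for beta-catenin-independent signals. Wnt5a was highest in myofibroblast-like cells, with 0.234 and 0.299 per 10000, as was Sfrp1, and Wnt16 in fibroblast-like cells, with 0.190 and 0.505, as was Sfrp4. No gene of the 3 other secreted antagonists in the table reached the minimum level.

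Of 9 receptor genes tested, 7 were lower, against 45.0% of all genes, and the largest folds were those of Fzd2 (-1.19), Fzd1 (-1.18) and Ptk7 (-1.12). Fzd5 was the 1 receptor gene that was higher (0.26, limma adjusted p = 0.042). Kremen1, the partner of Dickkopf proteins at LRP receptors, had 0.0251 and 0.0261 per 10000 in pluripotent-like cells against 0.0851 and 0.0768 in other cells, and Lrp6, their target, 0.114 and 0.117 against 0.363 and 0.323. Of the R-spondin list only Lgr4, a receptor of R-spondins, was tested, and it was lower (-0.42).

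Among 14 genes of secretion and transduction, 4 were higher and 7 lower, shares close to the 29.6% and 45.0% of all genes. Wls, which carries Wnt proteins to the cell surface, had the largest fold, with 0.0409 and 0.0459 per 10000 in pluripotent-like cells against 0.866 and 0.784 in others (-2.69). Tcf7l2 (-1.49) and Gsk3b (-1.19) were also lower. Lef1, a nuclear partner of beta-catenin, was higher (1.203), with 0.282 and 0.213 against 0.0499 and 0.0508, as were Dvl2 (0.75) and Gsk3a (0.39). Both tested genes of the feedback and target list were lower, Ccnd1 (-1.60) and Nkd2 (-0.49). Of the 28 genes, 27 also differed among the 12 states in the F-test, near the 92.3% of all genes.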

How the data were processed

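Droplet single-cell 3′ RNA-seq of 2 libraries of 1 group was analysed. The authors counted reads with Cell Ranger (version 2.1.1, mm10) and, with Seurat, retained cells that had over 1500 and under 6000 genes and below 9% mitochondrial RNA. The deposited values are natural log values, ln(1 + UMIs of the gene divided by UMIs of the cell times 10000). UMIs were recovered by taking the lowest nonzero linear value in a cell as 1 UMI, which made 100% of the values whole to within 0.01. Cells had between 4753 and 60990 UMIs, and 0 columns were left unassigned. No source used here states how doublets were treated, and no doublet caller was run.

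Cells of both libraries were clustered together (scanpy version 1.11.5, 2000 variable genes, 30 principal components, 15 neighbours, Leiden at resolution 1) without 73 Wnt pathway genes, antagonists included, and 10 other genes. A cluster took the name of the class with the largest share of markers raised 2-fold or more, provided that 3 or more markers and 50% or more of the class were raised and 1 or more was among the 10 leading genes. No other class could have more markers among those 10 genes, but a tie was allowed. This naming rule was set after the clusters were seen, and genes that vary with the antagonists took part in the clustering. Levels are means per 10000 UMIs of a state and library. The tests used limma (R version 4.3.3, limma version 3.58.1), with log2(level + 0.1) as the response and the library as a term, over 9239 genes with a mean of at least 0.05, with Benjamini-Hochberg adjustment at 0.05. Pluripotent-like cells against all others had 4 profiles and 7.29 degrees of freedom after sharing of the spread among genes, and the F-test across states had 24 profiles and 18.9. On simulated data with 200 of 9239 genes changed 4-fold, 100% were recovered in each test, with 3.85% of the calls false. The simulation gave every gene the same spread and changed far fewer genes than the real fits called. In pluripotent-like cells all tested antagonists but Dkk2 had folds below 4 on the tested scale. These rates therefore need not hold for the antagonists. The library term pairs the profiles of a library, since they come from the same cell suspension. A count of 0 is read against 3 counts. Gene places come from GENCODE M21 on GRCm38, the assembly that mm10 denotes.

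The antagonists, pathway lists and markers were chosen with earlier results of these data known. The genes named are the antagonists, up to 3 pathway genes per list and direction with the largest folds past the threshold, the 3 most similar profiles of each antagonist and 6 fibroblast genes. Kremen1, Lrp6 and the genes of Sostdc1-rich cells were named after their values were seen. Alternatives were other pseudocounts, minimum levels, resolutions and variable genes, the pathway genes allowed in the clustering, no library term, single libraries, cells called by their own markers, and equal weight to states. The split of pluripotent-like cells by fibroblast UMIs was added after seeing the data.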

Additional observations from a re-analysis of the deposited data

How the results depend on the processing

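The 6 antagonists were lower in pluripotent-like cells, and differed across states, in all alternatives in which they were tested, but for the call of Sfrp4 as given with it. With a minimum mean of 0.5 only 1 antagonist, Sfrp1, was left to test in each comparison and it passed, the others being dropped by construction. Of 61 folds recomputed with a test, 59 kept their direction and call, and all 49 recomputed F values passed. These folds are not independent checks, and most kept the minimum level that favours a lower value. Resolution 0.5 and pathway genes allowed in the clustering gave 538 pluripotent-like cells, as in the main fit, with the same folds. Resolution 2 and 4000 variable genes gave 537 each, with folds equal to one another. Without the library term, that is with no replicate block on the pairing of profiles, 6 of 6 passed in both comparisons. Single libraries, which allow no test, gave log2 folds (without replicate 1 and without replicate 2) of -0.94 and -1.54 for Sostdc1, -2.11 and -2.52 for Dkk2, -1.71 and -1.72 for Dkk3, -1.80 and -2.04 for Sfrp1, -0.94 and -0.58 for Sfrp2 and -1.27 and -0.56 for Sfrp4, so that the size of the Sfrp4 fold rests on the library. The F-test across states has no residual freedom in 1 library and was not run there. The number of pairs with an odds ratio above 1 in both libraries was 6 with thinning, 10 without, 9 when states were ignored and 6 at resolution 2; the cause was not tested. The number of antagonists at least 2-fold apart between the libraries was 1, and 2 with a pseudocount of 0.01 (Sostdc1 and Sfrp4), and the ratio of Dkk3 turned from -0.0382 to 0.0126 with equal weight to states. Depth limits Dkk1, Wif1 and Frzb, which had at most 17 UMIs in a library.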
